A study of Homo sapiens with 18 samples.

Results

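Hemidesmosomes are the junctions that rivet basal keratinocytes to the basement membrane under the epidermis. On the cell side, integrin α6β4 and type XVII collagen span the plasma membrane and are tied to keratin filaments by plakin proteins. On the matrix side they bind laminin-332, the main laminin of the epidermal basement membrane, which is tied to the dermis by anchoring fibrils of type VII collagen, while integrin α3β1 binds the same laminin in focal contacts. Inherited loss of many of these proteins causes blistering of the skin (epidermolysis bullosa).

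The 9 genes described here were chosen by function and found by symbol: the laminin chains LAMA3 and LAMB3, the integrin subunits ITGA6, ITGB4, ITGA3 and ITGB1, the hemidesmosome proteins COL17A1 and DST, and the anchoring fibril collagen COL7A1. They are 9 of 16472 genes in the table. All 9 passed the filter on low values, together with 13280 genes in all, and all 9 passed it in every library.

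RNA came from NIKS, an immortalized human keratinocyte line of long standing, in 18 libraries that form 6 groups of 3 biological replicates. The groups were SP100 wild type (WT) cells, untreated (0 h) or given human interferon alpha 2a, 25 ng/mL, and harvested after 12 or 48 h, and SP100 knockout (KO) cells with the same treatments. SP100 encodes a nuclear body protein. All 6 groups were grown in serum-containing medium on irradiated J2/3T3 mouse fibroblasts. Column names of the table give 1 line per genotype (Vec2 for WT and KO5 for KO), so loss of SP100 cannot be told apart from other differences between these lines. Untreated libraries were analysed at 0 h alone, so effects of interferon cannot be told apart from those of time in culture.

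Levels are RPKM, reads scaled to the length of the gene and to the size of the library, and their errors are SD with n = 3. Relative depth, recovered from the low values, spanned 0.839 to 1.276 times the average, and absolute read numbers are unknown. Across genes, Pearson r between libraries of 1 group was 0.985 to 0.989. SP100 was at 27.9 to 31.9 RPKM in untreated WT and 14.2 to 16.0 RPKM in untreated KO libraries, 151 to 172 against 86.5 to 93.2 RPKM at 12 h, and 124 to 131 against 57.4 to 62.4 RPKM at 48 h, so its RNA was lower but not absent in the KO line. The basal keratinocyte genes KRT5, KRT14 and TP63 averaged 7850, 6670 and 86.5 RPKM in untreated WT cells. All 18 classical interferon-stimulated genes listed rose in both genotypes at both times. Changes are differences of log2(RPKM + 1), tested with limma on all 18 libraries, with Benjamini-Hochberg adjustment over the 13280 genes and a threshold of 0.05. The p-values measure the spread between these libraries. In bulk RNA, fewer cells of a type and less RNA per cell cannot be told apart.

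In untreated WT cells the 9 genes were all abundant, the lowest at 121.7 ± 5.72 RPKM and ranked 794 in the table. ITGB1, the β subunit shared by many integrins, was the highest at 627.0 ± 8.44 RPKM (rank 163), followed by COL17A1 at 438.2 ± 25.6 RPKM (rank 210). ITGB4, the partner of ITGA6, was at 269.9 ± 15.7 RPKM. ITGA6 at 241.6 ± 7.11, LAMA3 at 235.3 ± 13.0, DST at 219.7 ± 8.39 and ITGA3 at 207.2 ± 7.94 RPKM followed in that order, and the libraries of neighbours in this order overlapped. LAMB3 at 142.5 ± 15.1 and COL7A1 at 121.7 ± 5.72 RPKM were lowest and also overlapped. The values are for whole genes, so the short and long forms of LAMA3 and the epithelial and other forms of DST are summed.

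Promoter sequences were taken from RefSeq (GRCh38.p14, looked up by symbol, a later build than the hg19 named for the files) as windows of 300 bases, from 250 bases before to 50 after an annotated start. The table held 13 windows for 7 of the 9 genes, and none for ITGB4 and ITGA3. Each window was searched on both strands for the letters GAAANNGAAA (the core of the interferon-stimulated response element, ISRE), TTCNNNGAA (the core of the gamma-activated site, GAS) and TGANTCA (the AP-1 site). These letters are in 3.57%, 7.66% and 7.71% of all 35116 windows. The 4 windows below are shown because their genes changed with interferon and they hold a match, and capitals mark the matches. COL17A1 had 1 ISRE core, LAMA3 had 2 AP-1 sites, 1 of the LAMB3 windows had 1 AP-1 site, and COL7A1 had 2 adjacent GAS cores. They lie on chr10:104085831-104086130 (minus strand), chr18:23872770-23873069 (plus strand), chr1:209651325-209651624 (minus strand) and chr3:48595280-48595579 (minus strand), and are written 5′ to 3′ on the strand of the gene.
COL17A1: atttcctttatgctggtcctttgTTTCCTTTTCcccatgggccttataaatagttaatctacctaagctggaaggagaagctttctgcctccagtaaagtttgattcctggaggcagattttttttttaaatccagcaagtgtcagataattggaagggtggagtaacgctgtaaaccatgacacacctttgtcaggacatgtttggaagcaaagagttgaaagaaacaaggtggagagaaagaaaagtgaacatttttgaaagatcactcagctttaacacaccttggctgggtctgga
LAMA3: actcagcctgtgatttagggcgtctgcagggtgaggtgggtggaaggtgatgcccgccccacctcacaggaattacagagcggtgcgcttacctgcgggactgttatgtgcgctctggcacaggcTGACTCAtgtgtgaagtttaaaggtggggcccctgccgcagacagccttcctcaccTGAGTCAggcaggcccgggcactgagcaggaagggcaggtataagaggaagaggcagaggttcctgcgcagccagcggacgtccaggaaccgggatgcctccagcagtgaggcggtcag
LAMB3: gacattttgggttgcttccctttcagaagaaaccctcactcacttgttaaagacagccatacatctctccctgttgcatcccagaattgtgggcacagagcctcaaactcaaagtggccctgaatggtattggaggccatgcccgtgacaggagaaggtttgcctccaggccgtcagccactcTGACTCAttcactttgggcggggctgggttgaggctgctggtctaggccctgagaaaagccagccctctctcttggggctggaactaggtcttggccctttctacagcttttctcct
COL7A1: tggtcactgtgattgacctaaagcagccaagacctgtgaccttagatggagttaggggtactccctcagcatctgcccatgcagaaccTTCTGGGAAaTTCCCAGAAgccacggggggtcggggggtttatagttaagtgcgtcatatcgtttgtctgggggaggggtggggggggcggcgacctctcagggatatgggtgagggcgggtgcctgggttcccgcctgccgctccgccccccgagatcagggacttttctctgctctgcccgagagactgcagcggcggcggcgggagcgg
The COL17A1 match is read on the opposite strand. None of the 3 motifs was found in the 2 ITGA6 windows or the 2 ITGB1 windows, and 1 DST window held an AP-1 site. A match is a description of the letters and not a binding site or a cause.

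After 12 h of interferon, the laminin chains LAMA3 and LAMB3, the integrin subunit ITGA6 and COL17A1 rose by 1.40 to 1.64 fold in both genotypes. COL7A1 fell in both. ITGB4, ITGB1 and DST did not pass the test in either genotype, and ITGA3 rose in KO cells. In WT cells 4 of the 9 genes rose and 1 fell, against 15.1% higher and 29.8% lower of all genes tested, and their median log2 change was 0.11 against -0.09 over all genes. The KO cells had 5 of the 9 higher and 1 lower, against 16% and 32.8%, and a median of 0.21 against -0.09.

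LAMA3 encodes the α3 chain, which carries the integrin-binding end of laminin-332. It was at 221, 245 and 240 RPKM in untreated WT libraries, 355, 381 and 361 at 12 h, and 283, 242 and 254 at 48 h. In KO libraries it was at 216, 205 and 206 RPKM untreated, 348, 325 and 356 at 12 h, and 242, 244 and 245 at 48 h. All libraries at 12 h lay above all untreated libraries and all libraries at 48 h, in both genotypes. The log2 change at 12 h was 0.63 ± 0.05 (SE) in WT (limma, adjusted p = 1.48e-07) and 0.71 ± 0.05 in KO (adjusted p = 3.26e-08), and 3.69% and 3.23% of tested genes had as high a change.

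LAMB3 encodes the β3 chain. It was at 126, 155 and 146 RPKM in untreated WT libraries, 199.8, 196 and 204 at 12 h, and 146, 125 and 133 at 48 h. In KO libraries it was at 109.5, 102 and 117 RPKM untreated, 173, 172 and 187 at 12 h, and 123, 125 and 114 at 48 h. The 12 h libraries again stood above the others of their genotype without overlap. The log2 change at 12 h was 0.49 ± 0.07 (SE) in WT (limma, adjusted p = 5.71e-05) and 0.69 ± 0.07 in KO (adjusted p = 1.44e-06).

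ITGA6 encodes the α6 subunit, which in basal keratinocytes pairs with ITGB4 in hemidesmosomes. It was at 234, 248 and 243 RPKM in untreated WT libraries, 336, 345 and 337 at 12 h, and 273, 254 and 269.5 at 48 h. In KO libraries it was at 249, 251 and 238 RPKM untreated, 382, 352 and 361 at 12 h, and 277, 273 and 282 at 48 h. All 12 h libraries were above the untreated and 48 h libraries of their genotype. The log2 change at 12 h was 0.49 ± 0.04 (SE) in WT (limma, adjusted p = 4.47e-08) and 0.57 ± 0.04 in KO (adjusted p = 6.3e-09).

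ITGB4, whose long cytoplasmic tail binds plectin, ranged from 229 to 274 RPKM at 12 h and from 222 to 286 RPKM in untreated libraries. Its 12 h and untreated libraries overlapped in both genotypes. The 95% interval of its log2 change at 12 h spanned -0.19 to 0.15 in WT cells and -0.09 to 0.26 in KO cells, below the value for ITGA6 in each. GALK1, at 7.36 RPKM, overlaps ITGB4 on the other strand; the libraries mark strand, and whether the counting used it is not given in the sources used here. Partner genes can also be compared within each library as a ratio of RPKM values, which does not depend on the scaling between libraries. Such ratios were chosen after the values were seen. The ITGA6 to ITGB4 ratio averaged 0.896 untreated and 1.28 at 12 h in WT, and 1.07 and 1.5 in KO, with the libraries apart in both. An exact two-sided permutation test of 3 against 3 libraries cannot go below p = 0.1, which is the value both gave, and adjustment over the 21 ratio tests made gave 0.162 in each, so no ratio difference passes that test. At 48 h it was 0.997 in WT and 1.08 in KO, overlapping the untreated libraries. Whether this ratio of RNA reached the proteins was not measured.

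**Figure D1:**
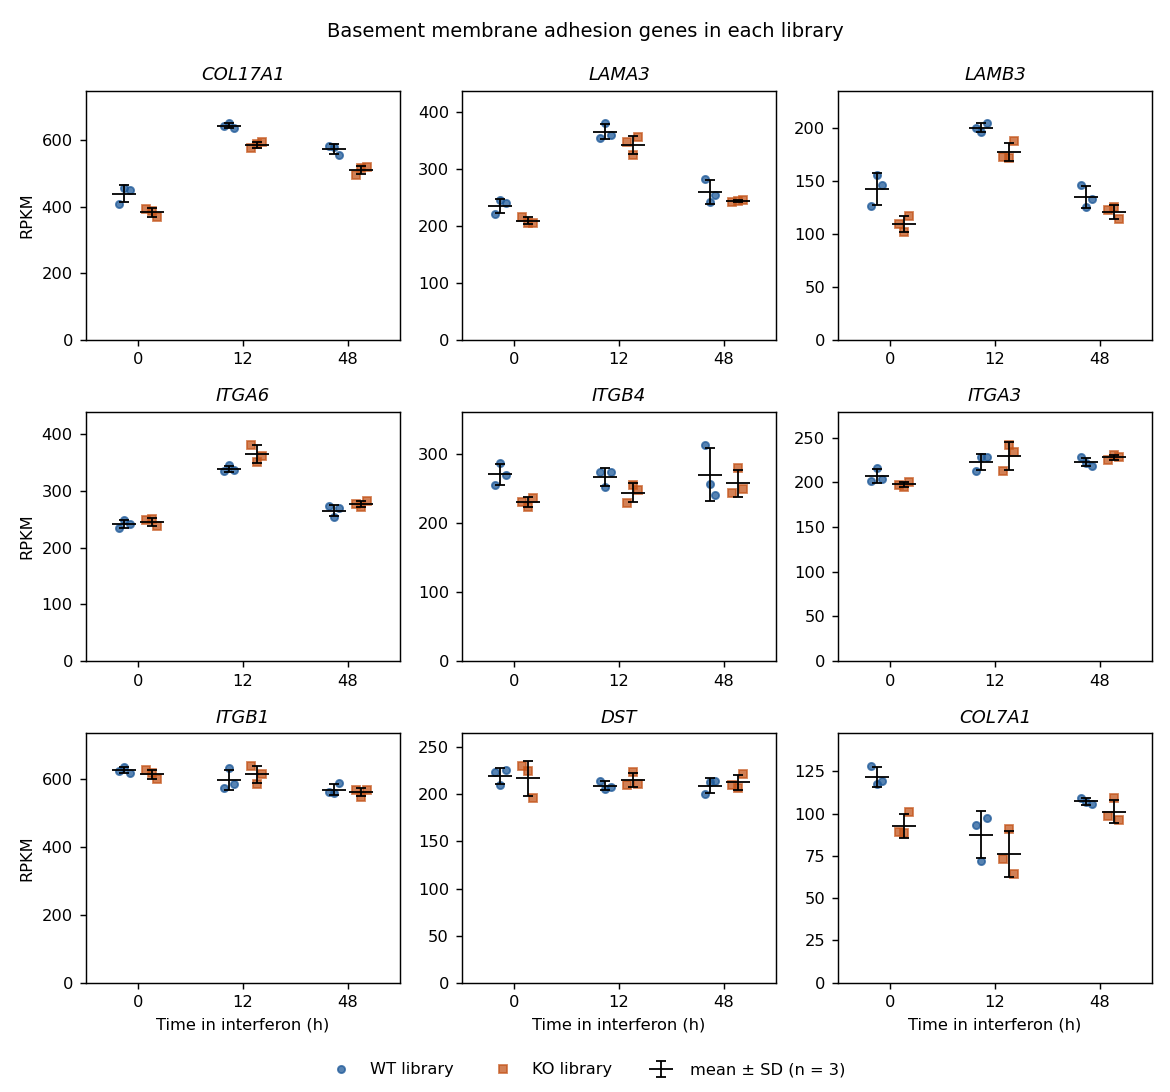
Level of each of the 9 genes in RPKM (linear axis from 0) in every library, by hours in interferon. Circles are WT libraries, squares KO libraries, and bars the mean ± SD of 3 libraries. COL17A1, LAMA3, LAMB3 and ITGA6 peak at 12 h, COL7A1 is lowest at 12 h, and ITGB1 and DST stay within 548 to 639 and 196 to 230 RPKM.

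ITGA3 and ITGB1 together form α3β1, the laminin receptor of focal contacts. ITGA3 rose at 12 h in KO cells by 0.21 ± 0.04 on the log2 scale (SE, limma, adjusted p = 0.00091), from 195 to 200.4 RPKM untreated to 212 to 242 RPKM. In WT cells its change was 0.11 ± 0.04 (adjusted p = 0.0639), with overlapping libraries. ITGA3 in WT passed under median-of-ratios scaling at 0.20 (adjusted p = 0.00242) and without the untreated WT replicate 2 (0.14), WT 12 h replicate 1 (0.14), KO 12 h replicate 1 or KO 12 h replicate 2 (0.11 each). ITGB1 had a log2 change of -0.07 in WT (adjusted p = 0.16) and 0.00 in KO (-0.0016, adjusted p = 0.979). Under median-of-ratios scaling the KO value became 0.11 and passed as a rise (adjusted p = 0.038), and without WT 12 h replicate 2 the WT value passed as lower, at -0.11 (adjusted p = 0.0286).

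COL17A1 encodes a transmembrane collagen of the hemidesmosome and was still high at 48 h. It was at 409, 456 and 450.2 RPKM in untreated WT libraries, 643, 650.2 and 634 at 12 h, and 583, 578 and 554 at 48 h. In KO libraries it was at 393, 385 and 369 RPKM untreated, 576, 587 and 594 at 12 h, and 495, 515 and 517 at 48 h. Within each genotype the times did not overlap, with 12 h highest and untreated lowest. The log2 change at 12 h was 0.55 ± 0.04 (SE) in WT (limma, adjusted p = 1.59e-08) and 0.61 ± 0.04 in KO (adjusted p = 3.91e-09).

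DST, which encodes the plakin that links type XVII collagen and β4 integrin to keratin, ranged from 196 to 230.4 RPKM over all 18 libraries. It passed no test in any of the 11 comparisons, and its 95% interval at 12 h spanned -0.18 to 0.04 in WT cells and -0.12 to 0.10 in KO cells. The COL17A1 to DST ratio accordingly averaged 2.0, 3.07 and 2.74 in WT at 0, 12 and 48 h, and 1.77, 2.72 and 2.39 in KO. PLEC, the other hemidesmosomal plakin, was not called at 12 h in either genotype, and CD151, the tetraspanin that accompanies these integrins, was not either.

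COL7A1, the anchoring fibril collagen, moved opposite to the 4 genes that rose. It was at 128, 118 and 119 RPKM in untreated WT libraries, 93.1, 72.1 and 97.7 at 12 h, and 109.6, 107 and 106 at 48 h. In KO libraries it was at 88.9, 88.3 and 101 RPKM untreated, 73.1, 91.0 and 64.5 at 12 h, and 98.7, 109 and 96.0 at 48 h. The WT libraries at 12 h lay below the untreated ones, while in KO replicate 2 at 12 h overlapped them. The log2 change at 12 h was -0.48 ± 0.11 (SE) in WT (limma, adjusted p = 0.00256) and -0.29 ± 0.11 in KO (adjusted p = 0.0422).

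The KO call of COL7A1 at 12 h was lost with median-of-ratios scaling (-0.18, adjusted p = 0.183), with variances without a trend, in a fit on the 6 libraries compared alone, and without any of 8 single libraries, namely the untreated KO replicates 1, 2 and 3, KO 12 h replicates 1 and 3, untreated WT replicate 3, and WT 48 h replicates 2 and 3. The value was -0.18 without KO 12 h replicate 3 and -0.23 without untreated KO replicate 3. The WT fall kept its call under every alternative, between -0.56 and -0.35.

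**Figure D2:**
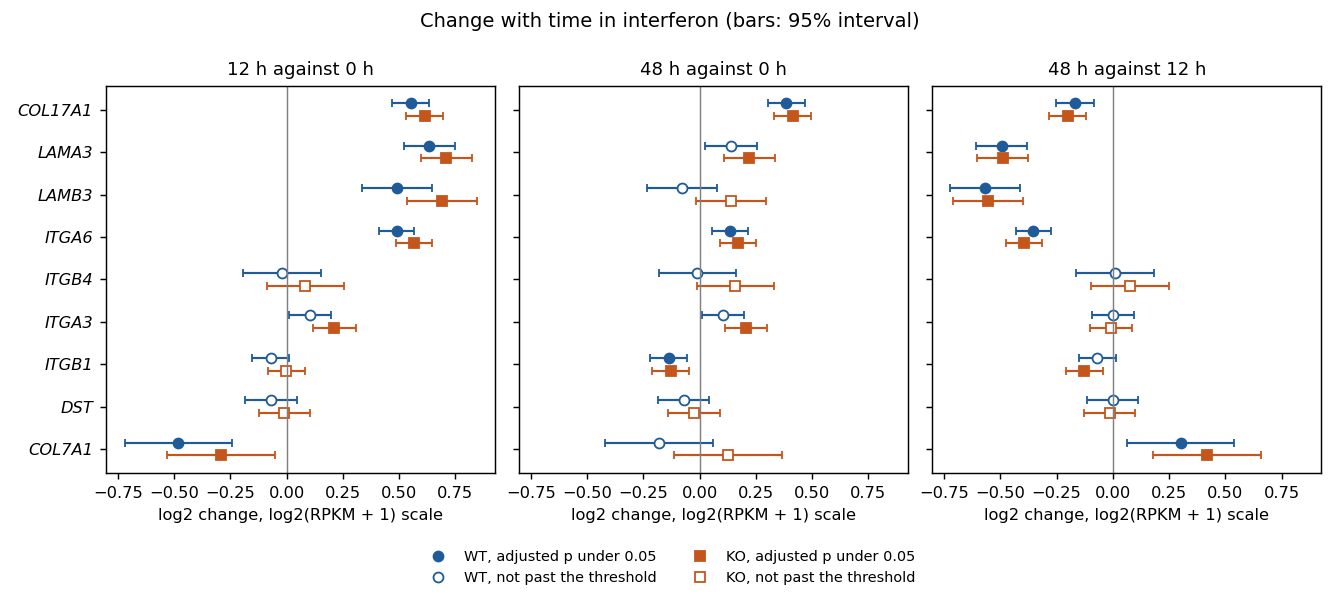
Change in log2(RPKM + 1) of each gene between times, with its 95% interval from limma. Circles are WT and squares KO, and filled symbols have an adjusted p under 0.05. At 12 h the upper 4 genes lie between 0.49 and 0.71, while at 48 h COL17A1 stands apart at 0.38 in WT and 0.41 in KO.

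The change from untreated cells at 12 h depended little on how the libraries were scaled for the 4 genes that rose. COL17A1 lay over the 25 alternatives between 0.50 and 0.65 in WT and between 0.59 and 0.72 in KO, LAMA3 from 0.59 to 0.73 and 0.68 to 0.82, LAMB3 from 0.41 to 0.59 and 0.64 to 0.80, and ITGA6 from 0.47 to 0.58 and 0.53 to 0.67, each past the threshold throughout. Median-of-ratios scaling moved all values at 12 h upward. The median over all genes became -0.0016 in WT and -3e-04 in KO. With it 5 genes rose and 1 fell in WT, against 21.8% higher and 20.4% lower of all genes. In KO 6 were higher and 0 lower, against 23.8% and 22.9%, with ITGB1 gained and COL7A1 lost.

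By 48 h most of the laminin and α6 rise was gone, whereas COL17A1 remained high. In WT cells COL17A1 and ITGA6 were higher than untreated and ITGB1 was lower, which is 2 of 9 genes higher and 1 lower against 6.52% and 6.3% of all genes. In KO cells COL17A1, LAMA3, ITGA6 and ITGA3 were higher and ITGB1 was lower, 4 of 9 and 1 of 9 against 5.9% and 7.42% of all genes. The log2 change of COL17A1 was 0.38 ± 0.04 (SE) in WT (limma, adjusted p = 3.08e-06) and 0.41 ± 0.04 in KO (adjusted p = 1.35e-06).

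In RPKM, COL17A1 at 48 h kept 65.4% of its 12 h gain in WT and 62.5% in KO. ITGA6 kept 24.5% and 26.1%, and LAMA3 kept 18.6% and 25.8%. LAMB3 stood at -13.4% in WT, that is just under the untreated mean, and at 16.4% in KO. These shares set 2 changes that use the same untreated libraries side by side and are given without an error.

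The remaining changes at 48 h were small. ITGA6 was 0.14 ± 0.04 higher on the log2 scale in WT (SE, limma, adjusted p = 0.0245) and 0.17 ± 0.04 in KO (adjusted p = 0.00573). LAMA3 was 0.22 ± 0.05 higher in KO (adjusted p = 0.012), and in WT its value was 0.14 (adjusted p = 0.103), with overlapping libraries. ITGA3, the α3 subunit, was 0.21 ± 0.04 higher in KO (adjusted p = 0.00521), and in WT its value was 0.10 (adjusted p = 0.138).

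ITGB1 fell by 0.14 on the log2 scale in WT (limma, adjusted p = 0.0269) and by 0.13 in KO (adjusted p = 0.0373), and its libraries at 48 h were all below the untreated ones in both genotypes. The ITGA3 to ITGB1 ratio averaged 0.33, 0.373 and 0.391 in WT at 0, 12 and 48 h, and 0.321, 0.374 and 0.406 in KO. The 48 h libraries were apart from the untreated ones in both genotypes (exact permutation p = 0.1, the smallest possible).

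The WT calls of ITGA6 and ITGB1 at 48 h were each lost in several alternatives, including 1 that kept all 18 libraries. ITGA6 lost its call without untreated WT replicate 1 (0.11) or 3 (0.14), WT 48 h replicate 1 (0.12) or 3 (0.12), with variances without a trend, or on the 6 libraries compared alone. ITGB1 lost its WT call without untreated WT replicate 1, 2 or 3, without WT 48 h replicate 1 or 2, at values from -0.15 to -0.13, or with variances without a trend. In KO cells ITGB1 lost its call under median-of-ratios scaling (-0.11), with variances without a trend, on the 6 libraries compared alone, and without untreated KO replicate 1 or 2 or any of the 3 KO 48 h replicates (-0.14 to -0.11). Without WT 48 h replicate 2, LAMA3 passed in WT (0.19, adjusted p = 0.043), and on the 6 libraries compared alone COL7A1 passed as lower at -0.18 (adjusted p = 0.0348).

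Set against 12 h directly, the 4 genes that rose came down in both genotypes. COL7A1 came back up in both, with a WT call that was lost in 17 of 25 alternatives. LAMB3 fell by 0.57 on the log2 scale in WT (limma, adjusted p = 2.35e-05) and by 0.55 in KO (adjusted p = 2.29e-05). LAMA3 fell by 0.50 in WT (adjusted p = 4.53e-06) and by 0.49 in KO (adjusted p = 3.59e-06), and ITGA6 by 0.35 and 0.40. COL17A1 fell least of the 4, by 0.17 in WT (adjusted p = 0.00319) and 0.20 in KO (adjusted p = 0.000677). ITGB1 fell in KO by 0.13 (adjusted p = 0.0149).

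COL7A1 rose from 12 to 48 h by 0.30 ± 0.11 in WT (SE, limma, adjusted p = 0.0478) and by 0.42 ± 0.11 in KO (adjusted p = 0.00734). In WT 1 of 9 genes rose and 4 fell, against 24.6% and 11.3% of all genes. The KO cells had 1 gene higher and 5 lower, against 27.7% and 14%. With median-of-ratios scaling 16.1% and 18.2% of all genes were called higher and lower in WT and 19.1% and 21.2% in KO. ITGB1 in WT then passed as lower (-0.16, adjusted p = 0.00628) and COL7A1 in WT did not pass (0.21, adjusted p = 0.148).

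The WT call of COL7A1 between 12 and 48 h was lost with variances without a trend, without the filter on low values, on the 6 libraries compared alone, and without any of 12 single libraries. It was 0.17 without WT 12 h replicate 2, the lowest COL7A1 library in WT, and between 0.29 and 0.31 without the untreated WT replicates 1, 2 and 3, the WT 48 h replicates 1, 2 and 3, untreated KO replicates 1 and 2, KO 12 h replicate 1, and KO 48 h replicates 1 and 3. The ITGB1 call in KO was lost without KO 12 h replicate 1 (-0.10) or KO 48 h replicate 2 (-0.11).

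Between genotypes the untreated KO line had less COL17A1 and LAMB3 RNA than the WT line. The untreated LAMB3 libraries were at 102 to 117 RPKM in KO and 126 to 155 RPKM in WT, and the COL17A1 libraries at 369 to 393 and 409 to 456 RPKM. LAMB3 was -0.37 ± 0.07 on the log2 scale (SE, limma, adjusted p = 0.006) and COL17A1 -0.20 ± 0.04 (adjusted p = 0.00689). This is 0 of 9 genes higher and 2 lower, against 2.82% higher and 2.07% lower of all genes (2.07% and 2.32% with median-of-ratios scaling, where 3 of the 9 were lower). Both calls were lost in a fit on the untreated libraries alone, where adjusted p was 0.0649 for LAMB3 and 0.0929 for COL17A1.

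The other genes did not pass at 0 h, although the KO and WT libraries of LAMA3, ITGB4, ITGA3 and COL7A1 did not overlap either. That makes 6 of 9 genes with all KO libraries below all WT libraries, against 8.85% of all genes tested. COL7A1 was at 88.3 to 101 RPKM in KO and 118 to 128 RPKM in WT, a log2 difference of -0.39 ± 0.11 (SE, limma, adjusted p = 0.059). It passed with median-of-ratios scaling (-0.41, adjusted p = 0.044), on the untreated libraries alone (adjusted p = 0.0183), and without WT 12 h replicate 2, KO 12 h replicate 2 or KO 12 h replicate 3, which leave the difference at -0.39. ITGB4 differed by -0.23 (adjusted p = 0.133) and LAMA3 by -0.17 (adjusted p = 0.091). LAMA3 passed without untreated WT replicate 1 (-0.21) or WT 48 h replicate 1 (-0.17), and ITGB4 without WT 48 h replicate 1 (-0.23). The 95% intervals were -0.06 to 0.11 for ITGA6, -0.11 to 0.05 for ITGB1 and -0.13 to 0.09 for DST.

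In interferon fewer of the 9 genes passed between the lines. At 12 h 0 of 9 genes passed in either direction in limma, against 1.6% higher and 2.02% lower of all genes, and 3 genes had an unadjusted p under 0.05, as 17% of all genes did. COL17A1 was at 576 to 594 RPKM in KO and 634 to 650.2 RPKM in WT without overlap, a log2 difference of -0.13 ± 0.04 (SE, adjusted p = 0.0735), which passed without untreated WT replicate 1 (adjusted p = 0.0261). LAMB3 was also lower without overlap (-0.17, adjusted p = 0.236), and ITGA6 was higher without overlap (0.10, adjusted p = 0.159). That makes 1 of 9 genes higher and 2 lower without overlap, against 11.2% and 9.77% of all genes tested.

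At 48 h COL17A1 was again lower in KO, at 495 to 517 against 554 to 583 RPKM, a log2 difference of -0.17 ± 0.04 (SE, limma, adjusted p = 0.0214). It was the only call, 0 of 9 higher and 1 lower against 2.03% and 2.16% of all genes. The call was lost with variances without a trend (adjusted p = 0.058), on the 48 h libraries alone (adjusted p = 0.0891), and without WT 48 h replicate 1 (-0.15), WT 48 h replicate 2 (-0.16) or KO 48 h replicate 1 (-0.15). LAMB3 libraries also lay lower in KO without overlap, which makes 2 of 9 genes, against 9.29% of all genes tested.

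**Figure D3:**
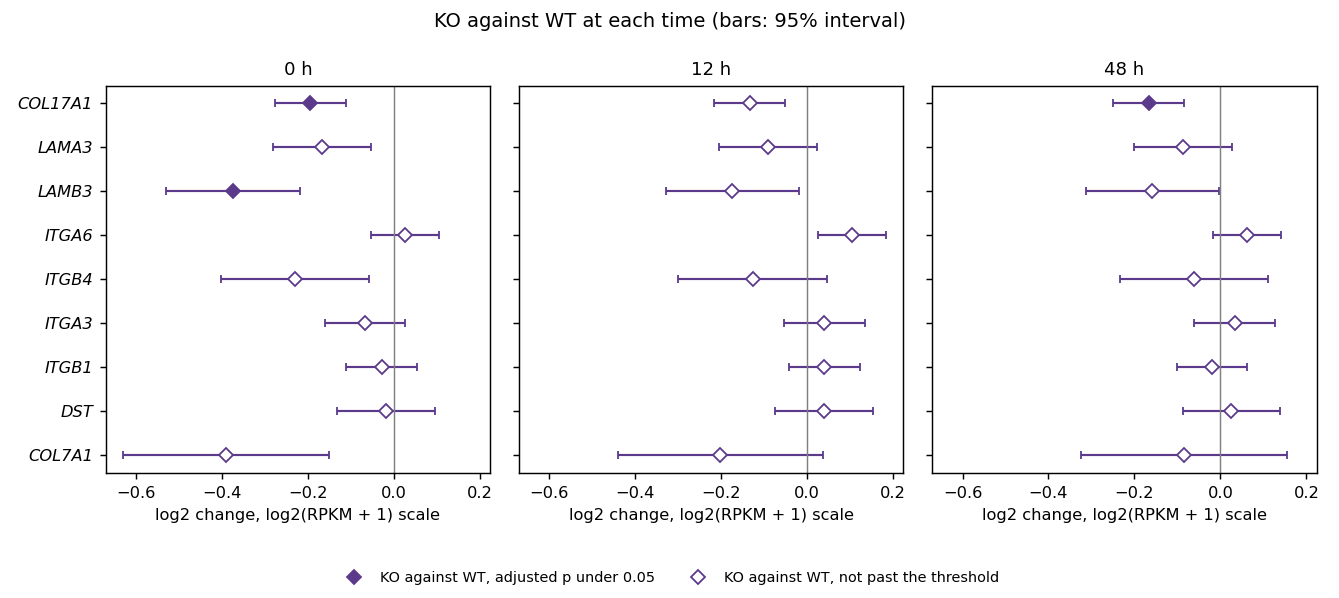
Difference in log2(RPKM + 1) between KO and WT at each time, with its 95% interval from limma, where negative values are lower in KO. Filled diamonds have an adjusted p under 0.05: COL17A1 at -0.20 and LAMB3 at -0.37 at 0 h, and COL17A1 at -0.17 at 48 h.

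Whether the response to interferon differed between the lines was tested as an interaction. In limma 0 of 9 genes passed at 12 h, against 0.0753% higher and 0% lower of all genes, and 0 of 9 at 48 h, against 0.0678% and 0.0151%. None of the 9 had an unadjusted p under 0.05 at either time, as 5.75% of all genes had at 12 h and 6.22% at 48 h. The largest values were for LAMB3, whose rise was 0.20 greater in KO at 12 h on the log2 scale (95% interval -0.02 to 0.42, adjusted p = 0.895) and 0.22 greater at 48 h (-0.0035 to 0.44, adjusted p = 0.80), and for COL7A1 at 48 h (0.31, interval -0.03 to 0.65). For COL17A1 the interval at 12 h was -0.06 to 0.18 and for ITGA6 it was -0.03 to 0.19. These intervals leave room for differences in response as large as their bounds.

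Within libraries, the ITGA6 to ITGB4 ratio was higher in KO when untreated, 1.07 against 0.896, and at 12 h, 1.5 against 1.28, with the libraries apart at both times (exact permutation p = 0.1 in each, the smallest possible). At 48 h the libraries overlapped. The ITGA3 to ITGB1 ratio overlapped between the lines at all 3 times. The COL17A1 to DST ratio was lower in KO, with the libraries apart at 12 h and 48 h (exact permutation p = 0.1 in each) and overlapping when untreated.

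**Figure D4:**
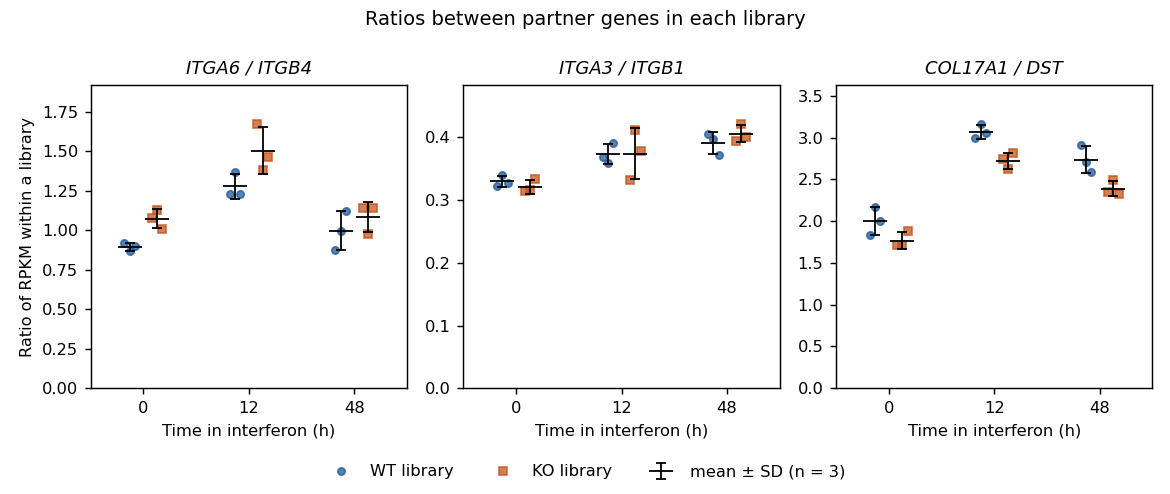
Ratio of the RPKM values of 2 genes within each library (linear axis from 0), by hours in interferon. Circles are WT, squares KO, and bars the mean ± SD of 3 libraries. At 12 h the ITGA6 to ITGB4 ratio moves from 0.896 to 1.28 in WT and 1.07 to 1.5 in KO.

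The partners of these genes were read from a list of 5. At 12 h 0 rose and 1 fell in each genotype, where 15.1% of all genes tested were higher and 29.8% lower in WT and 16% and 32.8% in KO, with a median log2 change of -0.095 in WT and -0.06 in KO, against -0.09 over all genes in both. KRT5, a keratin anchored by the hemidesmosome, fell by 0.17 on the log2 scale in WT and by 0.15 in KO. With median-of-ratios scaling KRT5 did not pass (-0.07 and -0.04) and PLEC passed as higher (0.22 and 0.23). At 48 h the log2 change of CD151 was -0.26 in WT (limma, adjusted p = 0.00341) and -0.19 in KO (adjusted p = 0.0259). PLEC rose in KO by 0.35 at 48 h (adjusted p = 0.000849), from 121 to 133 RPKM untreated to 157 to 166 RPKM, and in WT its change was 0.096 (adjusted p = 0.339), with libraries between 127 and 148 RPKM at both times. The difference between the lines in that change was 0.26 and did not pass (interaction, adjusted p = 0.714).

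Of 16 other basement membrane genes tested, 0 passed as higher and 5 as lower in WT cells at 12 h, and 1 was higher and 7 lower in KO, with medians of -0.14 and -0.15. Against 29.8% and 32.8% of all genes lower, the WT count is near the share over all genes and the KO count somewhat above it. HSPG2, which encodes perlecan, fell by 0.66 on the log2 scale in WT and by 0.97 in KO. LAMA5, another laminin α chain, fell by 0.48 and 0.59, and DAG1, the laminin receptor dystroglycan, by 0.43 and 0.55. At 48 h 1 of the 16 was higher and 2 lower in WT, against 6.52% and 6.3% of all genes. In KO 2 were higher and 1 lower, against 5.9% and 7.42%. AGRN was among the higher in both, at 0.42 and 0.63, and COL18A1 among the lower, at -0.70 and -0.56. Of 10 other integrin subunits tested, 1 was higher and 3 lower at 12 h in each genotype, with medians of -0.10 and -0.11. These are near the all-gene shares (15.1% higher and 29.8% lower in WT, 16% and 32.8% in KO) and the all-gene median of -0.09. ITGA5, the fibronectin receptor subunit, rose by 0.36 in WT and 0.35 in KO, and ITGB2 fell by 0.42 and 0.57. ITGAV had fallen at 48 h, by 0.50 in WT and 0.55 in KO.

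Of 19 focal adhesion genes, 2 were higher and 4 lower in WT at 12 h, and 5 were higher and 3 lower in KO, with medians of 0.04 and 0.10. All genes gave 15.1% higher and 29.8% lower in WT and 16% and 32.8% in KO, so the WT counts lie below these shares in both directions. FERMT1, which encodes the integrin activator kindlin-1, rose by 0.67 in WT (limma, adjusted p = 1.37e-09) and 0.66 in KO (adjusted p = 1.6e-09), and TNS3, which encodes tensin-3, fell by 0.42 and 0.49. Of 19 collagen and laminin processing genes, 8 were higher and 4 lower in WT, and 7 were higher and 5 lower in KO, with medians of 0.10 and 0.07, a larger share higher and a smaller share lower than over all genes (15.1% and 29.8% in WT, 16% and 32.8% in KO). P4HA1, a prolyl hydroxylase that stabilizes collagen, rose by 0.89 in both. With median-of-ratios scaling no gene of these 4 lists that was called at 12 h changed sign, and 5 focal adhesion genes were then higher in WT and 8 in KO. Processing genes then numbered 10 higher and 3 lower in WT cells, 8 and 3 in KO cells, basement membrane genes 1 and 4 in WT and 1 and 5 in KO, and integrins 2 and 2 in WT and 1 and 2 in KO, while all genes gave 21.8% higher and 20.4% lower in WT and 23.8% and 22.9% in KO. MMP2 was lower in KO than in WT at 0, 12 and 48 h, with log2 differences of -1.20, -0.996 and -0.86, and TGM2 likewise, at -0.86, -1.37 and -1.57. TGM2 was a low gene, at 1.58 RPKM in untreated WT against 17.3 RPKM for MMP2, and its libraries ranged from 0.25 to 3.97 RPKM.

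Markers of other cell states were read beside these changes. Of 10 differentiated keratinocyte markers tested, 7 rose and 1 fell at 12 h in each genotype, against 15.1% higher and 29.8% lower of all genes in WT and 16% and 32.8% in KO. Their summed level was 165 to 187 RPKM in untreated WT, 208 to 222 at 12 h and 156 to 173 at 48 h. In KO it was 147 to 165, 179 to 229 and 167 to 189 RPKM. SPRR1B carried most of this sum, at 100 of a mean of 174 RPKM in untreated WT. Of 6 basal markers 1 was higher and 3 lower in WT, and 2 and 3 in KO, against the same all-gene shares. Their median log2 change was -0.13 in WT and -0.08 in KO, against -0.09 over all genes in both. KRT15 was among the lower, at -1.06 and -0.91, as was KRT5, at -0.17 and -0.15, while KRT14 did not pass. With median-of-ratios scaling 2 were higher and 2 lower in each genotype. All genes then gave 21.8% higher and 20.4% lower in WT and 23.8% and 22.9% in KO. Of 18 fibroblast markers 9 are in the table, and their sum, carried by VIM, was 411 to 425 RPKM in untreated WT, 335 to 344 at 12 h and 303 to 323 at 48 h, and 284 to 288, 244 to 259 and 215 to 223 RPKM in KO. In untreated WT, VIM averaged 384 RPKM, FBLN1 15.0, S100A4 10.7, FAP 5.74 and COL1A1 1.67 RPKM. TWIST1 averaged 0.833, COL6A3 0.547, PDGFRB 0.0867 and COL6A1 0.0767 RPKM. COL1A2, COL3A1, COL5A1, COL6A2, PDGFRA, THY1, LUM, DCN and TCF21 are not listed in the table. Of 7 melanocyte markers 2 are in the table, summing to 0.98 to 2.34 RPKM. The part of these markers in the changes of the 9 genes was not tested.

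The 9 genes did not share 1 pattern over the 18 libraries. Pearson r was 0.938 between LAMA3 and LAMB3, -0.025 between ITGA6 and ITGB4, and -0.757 between ITGA6 and COL7A1. Their average, with each gene scaled to the same spread, therefore does not describe each of them. It had among its closest matches NRG1 (Pearson r = 0.936), KRT17 (0.908), PPP1R18 (0.904) and SNAI2 (0.90), none of them among the 9. COL17A1 alone was most like CD68 (0.978), VEGFC (0.975) and SP100 itself (0.974). The libraries share their 6 groups, so these values describe a common pattern over groups and carry no test.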

How the data were processed

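Polyadenylated RNA of 18 NIKS cultures was sequenced from stranded libraries, per the labels' protocols. The authors deposited 1 table of RPKM values. Cutadapt, STAR 2.6.1, RSEM 1.3.0, limma 3.50.3 and hg19 are named per the submitters' processing notes, with no roles, and the reads behind the library size are not given in the sources used here.

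Symbols were matched to 14576 of 16472 gene IDs. Values were transformed to log2(RPKM + 1), genes that reached an RPKM of 1 in 3 or more libraries were kept, and a cell-means model over 18 libraries with a variance trend was fitted in limma 3.58.1 under R 4.3.3 for 11 comparisons. The scale understates changes of low genes, which these are not. Simulated data for WT at 12 h held 13280 genes, of which 100 changed by 0.5 and 100 by 1. Of these, 69% and 95% were recovered, and 5.2% of calls were false. In the data 2005 genes were called higher and 3959 lower in this comparison, so these rates need not hold for it. Relative depth came from whole-read steps in low values, with 96.7% of library pairs within 3% of the fit.

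Alternatives were no filter or a mean RPKM of 5, a pseudocount of 0.1, scaling by median of ratios, variances without a trend, the comparison's libraries alone, a replicate block, and leaving out single libraries. The 9 genes, PLEC and CD151 were always named; of other lists, genes past the threshold and among the 4 largest changes of their list were named, and likeness was ranked by Pearson r; a few items are not reported here. The genes and lists were chosen with earlier results of these data known.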

Additional observations from a re-analysis of the deposited data

Results flagged for a closer look

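COL7A1 was singled out because its libraries at 48 h lay on opposite sides of the untreated mean in the 2 lines. Every WT library at 48 h lay below the untreated WT mean and every KO library at 48 h above the untreated KO mean. The WT libraries at 48 h also lay below every untreated WT library, as they did for 16.8% of all genes tested. The KO libraries at 48 h overlapped the untreated ones. Neither change at 48 h passed in limma on all 18 libraries. It was -0.18 in WT (adjusted p = 0.334) and 0.13 in KO (adjusted p = 0.522). The difference between the lines in the log2 change was 0.31 ± 0.16 (SE), 0.3069 before rounding. The interaction did not pass in limma (unadjusted p = 0.0722, adjusted p = 0.815).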

How the results depend on the processing

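The rises of COL17A1, LAMA3, LAMB3 and ITGA6 at 12 h and their fall from 12 to 48 h, in both lines, kept their direction and side of the threshold in all 25 alternatives. Of the 99 changes of single genes, 21 had the other sign in at least 1 alternative. None of the 21 had passed the threshold (reported values within 0.075 of 0), and 1 passed with the other sign, ITGB1 in KO at 12 h, which was 0.11 (0.1063) with median-of-ratios scaling. That scaling moves every gene of a library together. The number of the 9 genes called in WT at 48 h against 0 h was 1 with variances without a trend, and 1 to 3 when a library was left out. For KO against WT it was 1 on the untreated libraries alone at 0 h and 2 to 4 when a library was left out, 0 to 1 at 12 h when a library was left out, and at 48 h 0 with variances without a trend, 0 on the 48 h libraries alone and 0 to 1 when a library was left out. The cause of these changes was not tested. Calls over all genes for KO against WT dropped on the libraries of the comparison alone from 650 to 330 at 0 h, from 481 to 233 at 12 h and from 556 to 287 at 48 h. For KO at 48 h against 0 h they dropped from 1770 to 1038, and for the interactions from 10 to 6 at 12 h and from 11 to 3 at 48 h. Leaving out untreated WT replicate 2 or 3 or untreated KO replicate 1 or 2 gave 381 to 415 calls at 0 h, leaving out WT 12 h replicate 1 or 3 or KO 12 h replicate 1 gave 304 to 319 at 12 h, and leaving out untreated KO replicate 1 gave 1160 for KO at 48 h. The interaction counts were 6 at 12 h without WT 48 h replicate 2 or 3, untreated KO replicate 1 or 2, or KO 12 h replicate 3, and 7 at 48 h without WT 48 h replicate 2.

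Replicate numbers did not pair the libraries. Over 45 pairs with the same number, deviations from the group means correlated at -0.097 to 0.157 with 2 above 0.1, and 2 of 18 libraries correlated best with their own number. With the number as a replicate block, 3 changes of a single gene did not pass, COL7A1 in WT from 12 to 48 h (0.30, adjusted p = 0.068) and in KO at 12 h (-0.29, adjusted p = 0.0602), and ITGB1 in KO at 48 h (-0.13, adjusted p = 0.0616), and no other call changed. The number of reads behind an RPKM value is unknown, so no counting error is given.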
